A study of Mus musculus with 2 samples.

Results

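The Reg genes encode small secreted proteins built around a single C-type lectin fold. 7 of the 32285 genes in the deposited count tables carry one of the symbols Reg1, Reg2, Reg3a, Reg3b, Reg3d, Reg3g and Reg4, and these 7 were followed across the cell types of mouse pancreatic tumours. The series holds 2 single-cell RNA libraries of tumours from KPPC mice that were 6 weeks old, 1 after vehicle and 1 after takinib at 50 mg/kg over 14 days. KPPC mice are a genetic model that develops pancreatic tumours. The labels give neither the alleles, nor the Cre driver, nor the number of mice per library. Both libraries share that genotype and differ by treatment alone as labelled. Takinib is a small-molecule inhibitor of the kinase TAK1, encoded by Map3k7.

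As background, Reg1 and Reg2 proteins are made by acinar cells, the enzyme-secreting cells of the exocrine pancreas, and are secreted into pancreatic juice. Reg3b, also called pancreatitis-associated protein, and Reg3g are induced in injured pancreas and in infected gut epithelium, where Reg3g acts on Gram-positive bacteria and where STAT3 signalling downstream of IL-22 and IL-6 is a known inducer. Reg3a and Reg3d are less studied mouse members of the same branch, and Reg4 is a marker of secretory cells of the intestine. Exostosin-like Extl3 has been proposed as a Reg receptor.

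Each level is given in CPM, a gene's part of all unique molecular identifiers (UMIs, each marking 1 captured RNA molecule) summed over the cells named, on the usual counts-per-million scale. With 1 library per group nothing could be tested between treatments, and no difference can be set against the spread between mice. The 95% intervals printed in square brackets (exact Poisson for a level, exact conditional binomial for a ratio, Clopper-Pearson for a share of cells) cover counting error only. Kept cells had at least 1000 UMIs and 500 genes and no more than 20% mitochondrial UMIs, which left 9558 vehicle and 25183 takinib cells after doublets were removed. The median kept cell held 3556 UMIs in the vehicle library and 2887 in the takinib library, with medians of 8.70% and 1.79% mitochondrial UMIs. The headers of the 2 tables name different Cell Ranger versions, and only the vehicle table holds barcodes under 500 UMIs. The vehicle library held 1075 cells with Xist and no Y-linked UMI and 3087 with the reverse, so it holds cells with female-type and cells with male-type RNA, while no takinib cell had a Y-linked UMI. Treatment, pipeline version, sex and cell state cannot be told apart in this design. The libraries shared 359 cell barcodes, 2 of them among epithelial cells.

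6 of the 7 genes lie together on chromosome 6 and 1 lies alone (GRCm38, GENCODE M21). Reg3b (chr6:78370657-78373466, plus strand), Reg3d (chr6:78375874-78378865, minus), Reg3a (chr6:78380709-78383827, plus), Reg2 (chr6:78395623-78408106, plus), Reg1 (chr6:78422711-78428667, plus) and Reg3g (chr6:78466269-78468872, minus) fall within 98.2 kb. Reg4 is on chromosome 3 (chr3:98222156-98236748, plus). The GENCODE transcripts compared are 698 to 1021 bases long, so UMI counts were not scaled by length. The members are related enough to ask whether reads could be assigned to the wrong one. The longest run of identical bases between any 2 of the transcripts was 35 bases, between Reg3b and Reg3g, which are 74.4% identical over 739 aligned bases, and the next longest was 24 bases.

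Sequences just before 4 of the RefSeq start sites are shown because Reg1, Reg2, Reg3b and Reg3g had the most UMIs among the chromosome 6 members. All are RefSeq promoters of GRCm38.p6, printed 5′ to 3′ on the gene's strand. The RefSeq starts of Reg1 (78425983), Reg2 (78405155) and Reg3b (78370885) lie inside the GENCODE genes given above, so these 3 stretches do too, and 6 bases of the Reg3b stretch are exonic in GENCODE. The first pair covers the bases from 180 to 54 before the start site, with capitals on an E-box (CANNTG) followed 6 bases later by TTCCC (Reg1 chr6:78425803-78425929, plus; Reg2 chr6:78404975-78405101, plus).
Reg1: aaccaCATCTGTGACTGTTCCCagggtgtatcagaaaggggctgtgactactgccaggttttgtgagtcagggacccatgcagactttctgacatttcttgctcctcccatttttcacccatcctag
Reg2: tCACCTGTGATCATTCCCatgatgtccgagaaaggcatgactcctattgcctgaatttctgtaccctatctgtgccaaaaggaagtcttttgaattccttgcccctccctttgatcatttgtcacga
The second pair covers the bases from 180 to 21 before the start site, with capitals on TATAAA where it lies on the gene's strand and, in Reg3b, on the STAT-type palindrome TTCNNNGAA (Reg3b chr6:78370705-78370864, plus; Reg3g chr6:78468895-78469054, minus).
Reg3b: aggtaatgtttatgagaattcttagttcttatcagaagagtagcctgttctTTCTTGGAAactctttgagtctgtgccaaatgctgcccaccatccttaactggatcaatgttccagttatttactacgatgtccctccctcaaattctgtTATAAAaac
Reg3g: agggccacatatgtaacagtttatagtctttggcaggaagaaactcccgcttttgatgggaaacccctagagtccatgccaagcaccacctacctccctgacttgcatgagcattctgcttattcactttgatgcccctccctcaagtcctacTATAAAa

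The 250 bases before each start site were searched on both strands for 5 motifs, chosen after the sequences had been seen. The spaced motif (CANNTG, then any 6 bases, then TTCCC) was found in the Reg1 and Reg2 promoters, 175 and 179 bases before the start, and in 0.295% of the 32851 mouse promoter windows. TATAAA, which overlaps neither of the other printed motifs, was found 27 to 30 bases before the start of Reg1, Reg2, Reg3b and Reg3g, a further time on the opposite strand of Reg3g at 161 bases (printed there in lower case as tttata), and in none of the windows of Reg3a, Reg3d and Reg4, against 12.4% of all windows. TTCNNNGAA was in the Reg3b and Reg3d windows and in 7.02% of all windows. CACCTG was in 5 of the 7 windows and in 17.2% of all, and in Reg2 it is the E-box of the spaced motif. TGANTCA was in the Reg1 window and in 6.75% of all. The Reg1 and Reg2 promoters were 69.0% identical over 226 aligned bases and those of Reg3b and Reg3g 70.0% over 247, with a longest shared run of 20 bases. These are matches of letters, and no binding was measured.

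Most Reg RNA was counted in epithelial cells in both libraries, except for Reg3a in vehicle. Epithelial-like cells, 12 clusters led by keratin, gastric, acinar, goblet, tuft or endocrine genes, made up 1631 of the vehicle cells and 1528 of the takinib cells. They held 87.3% of the kept Reg1 UMIs in vehicle and 86.5% in takinib, and 88.1% and 87.2% of Reg3b. Of the vehicle Reg3a UMIs 45.7% were epithelial-like, against 92.4% in takinib, and of Reg2 68.9% and 97.1%. Reg genes were kept out of the clustering features, although clusters are still partly defined by genes that vary with them. Clusters are called here by number and by leading genes other than Reg genes, since several carry markers of more than 1 type.

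**Figure D1:**
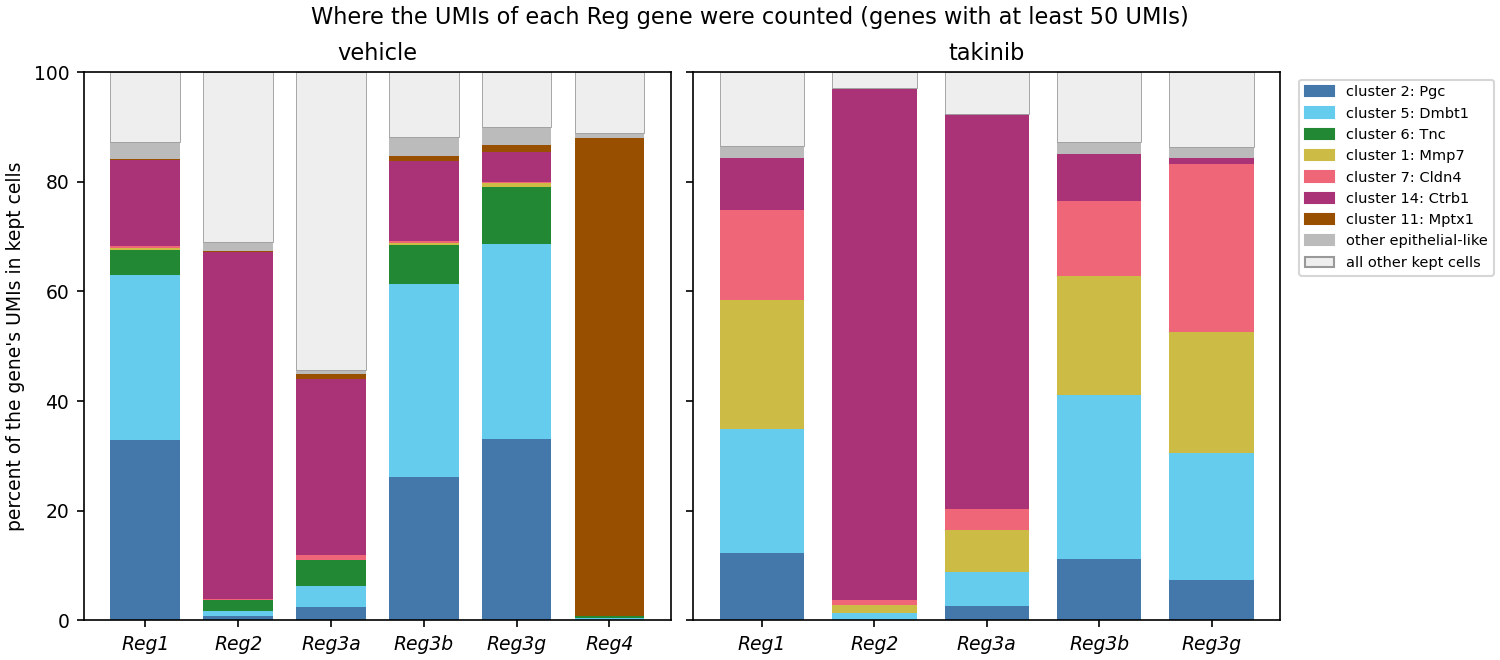
Percent of each Reg gene's UMIs in kept cells (vertical axis) that was counted in each group of cells (colours), for the vehicle library on the left and the takinib library on the right, over genes with at least 50 UMIs. Reg1, Reg3b and Reg3g are spread over several clusters, Reg2 sits mainly in the acinar-like cluster 14 (63.4% and 93.3%), and 87.1% of vehicle Reg4 sits in the goblet-like cluster 11.

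Acinar-like cells had the highest level of the family. Cluster 14 was led by the digestive enzymes Ctrb1, a chymotrypsinogen, and Prss2, a trypsinogen, and held 38 vehicle and 16 takinib cells. Reg1 stood at 16020 CPM [15489 to 16564] in vehicle and 32248 [31400 to 33112] in takinib, and 38 of 38 and 16 of 16 cells had a Reg1 UMI. Reg3b stood at 9281 CPM in vehicle and 18986 in takinib. Together the 7 genes made up 29692 CPM of the vehicle acinar-like RNA and 66444 CPM of the takinib acinar-like RNA.

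Reg2, the other pancreatic-juice member, was nearly restricted to these cells among the epithelial clusters. Its level was 3862 CPM [3604 to 4134] in vehicle and 14401 [13836 to 14982] in takinib acinar-like cells, and between 1.66 and 31.8 CPM in the other epithelial clusters with at least 10 cells and 1 Reg2 UMI. In vehicle, 831 of the 903 epithelial Reg2 UMIs came from 26 acinar-like cells, and in takinib 2453 of 2552 came from 16 cells. The spread between cells was wide, since vehicle acinar-like cells ran from 0 to 21483 CPM of Reg2 with a median of 976, against 777 to 29225 with a median of 15086 in takinib. The ranges overlap, and the takinib median lies in the upper part of the vehicle range.

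The 2 rarest members also had their highest epithelial levels here. Reg3a reached 191 CPM in vehicle and 335 in takinib acinar-like cells, from 41 and 57 UMIs. Reg3d reached 37.2 and 82.2 CPM from 8 and 14 UMIs, and outside cluster 14 only 2 epithelial Reg3d UMIs were counted, both in vehicle cells. In the other epithelial-like cells both genes had too few UMIs for a ratio to be read. In macrophage-like cells Reg3a had 44 UMIs in vehicle and 1 in takinib, a log2 ratio of -5.91 [-11.2 to -3.36]. The ratio there was also below 0 for Reg1 (-1.50), Reg2 (-4.08), Reg3b (-1.50) and the family sum (-1.64). That of Reg3g (-0.48) had an interval that spanned 0. Vehicle barcodes under 1000 UMIs held 18.3 CPM of Reg3a, above its level in vehicle macrophage-like cells. The part of free RNA, captured from outside the cell, in these UMIs was not tested. Over all kept cells Reg3a had 127 and 79 UMIs, a log2 ratio of -2.20 [-2.62 to -1.78]. With 16 takinib cells, under the 50 set for a comparison, the acinar-like levels are given side by side with no ratio. The summed level of the 18 acinar markers in these cells was 40233 CPM in vehicle and 247395 in takinib, so the enzyme RNA was also higher per UMI in the takinib cells, and its part in the Reg levels was not tested. Neutrophil markers also stood higher in the takinib acinar-like cells, at 4626 CPM against 37.2.

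Cluster 5, led by Dmbt1, a scavenger-receptor glycoprotein of mucosal surfaces, and Mmp7, a metalloprotease of injured ducts, carried the most Reg RNA among clusters with at least 50 cells in both libraries. It held 284 vehicle and 277 takinib cells and scored highest for the ductal carcinoma markers. Reg1 was 5501 CPM [5370 to 5635] in vehicle and 5424 [5332 to 5518] in takinib, and Reg3b was 3995 [3883 to 4109] and 4679 [4593 to 4766]. Reg3g was 346 CPM [314 to 381] in vehicle and 571 [541 to 602] in takinib. Reg3b and Reg1 are themselves among this cluster's leading genes, so its rank among clusters is a description.

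Cluster 2, led by Pgc, a pepsinogen, and Gkn3, a gastrokine, was second and held 266 vehicle and 130 takinib cells. Its Reg1 level was 3366 CPM [3289 to 3444] in vehicle and 3956 [3864 to 4048] in takinib. Reg3b stood at 1654 CPM and 2323 CPM, and Reg3g at 179 CPM and 242 CPM. The cluster stays unnamed because gastric and ductal carcinoma markers scored close together.

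Clusters 6, 7, 8 and 1 differed widely. Clusters 6 and 7 were named ductal carcinoma-like, while clusters 8 and 1 stay unnamed. In cluster 1 neutrophil markers scored close behind the ductal carcinoma markers. Cluster 6, led by Tnc, an extracellular matrix protein, had 524 vehicle cells with 280 CPM of Reg1 and 261 CPM of Reg3b, and 30 takinib cells with 19.1 and 54.7 CPM. Cluster 8, led by Prl2c2, scored highest for the mesenchymal carcinoma markers with monocyte markers close behind, and held 151 vehicle cells with 16.7 CPM of Reg1, below every other cell type with at least 50 vehicle cells. Cluster 7, led by Cldn4, a tight junction claudin, and Duoxa2, a maturation factor of the oxidase DUOX2, was nearly all takinib, and its 387 cells had 1823 CPM of Reg1, 982 of Reg3b and 348 of Reg3g. Cluster 1, led by Mmp7 and Wfdc2, a secreted protease-inhibitor-like protein, held 597 takinib cells with 1771 CPM of Reg1 and 1066 of Reg3b. Neutrophil markers summed to 25502 CPM in cluster 1, with 0 of the 9 markers at 0, and their part in its Reg levels was not tested.

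**Figure D2:**
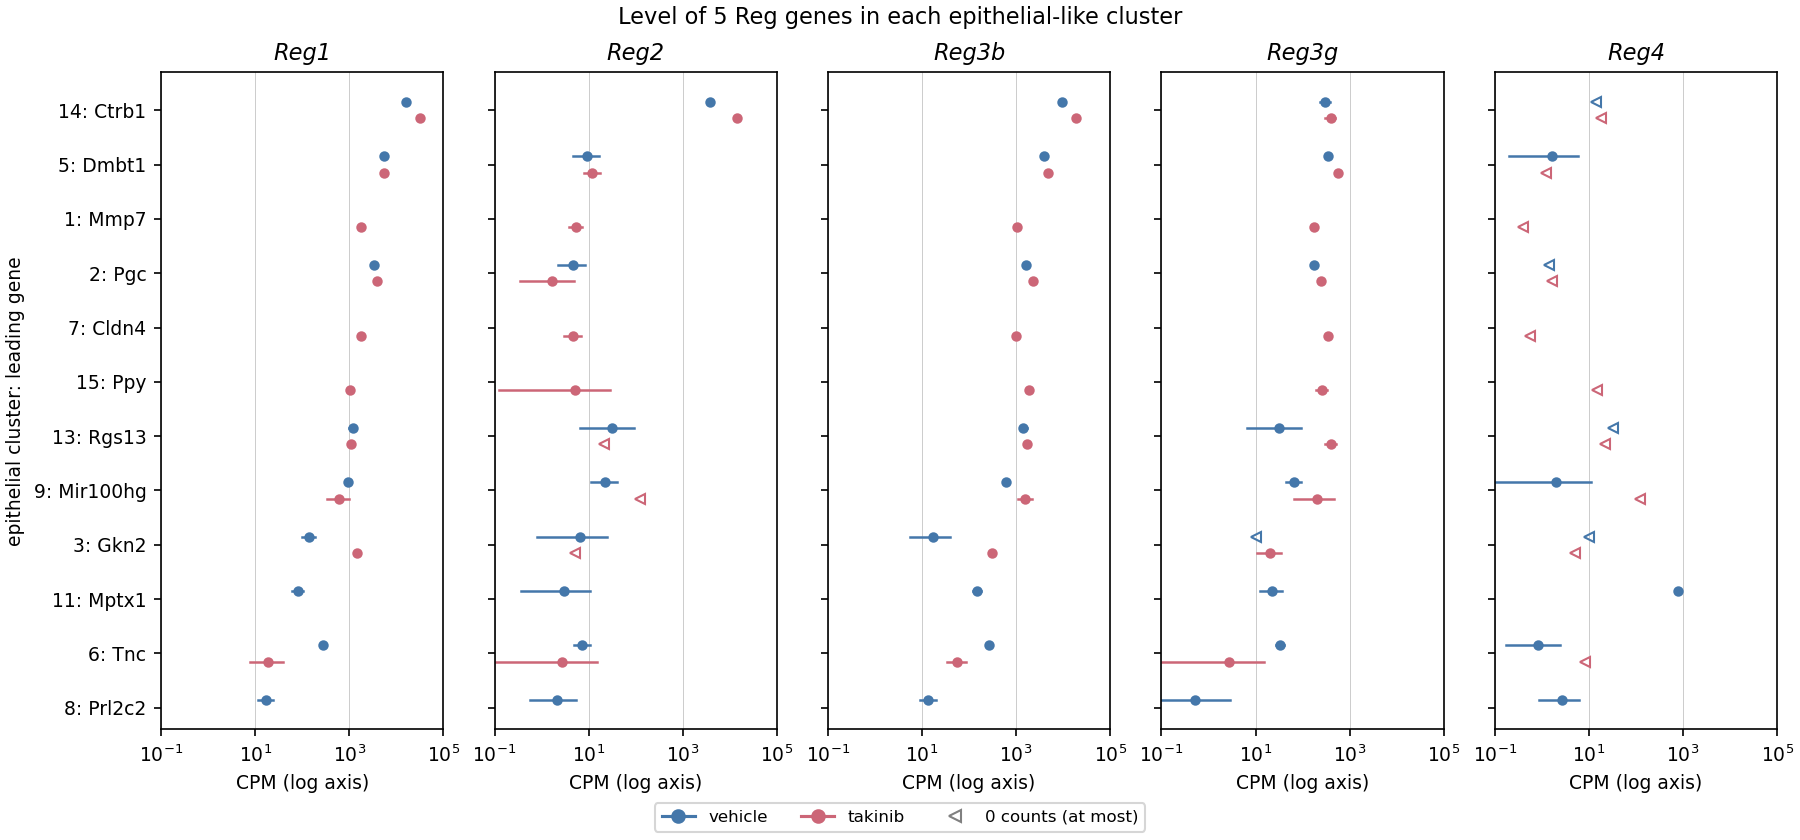
Level in CPM (log axis) of 5 Reg genes in each epithelial-like cluster with at least 10 cells in a library, in vehicle (blue) and takinib (red). Points are summed levels, bars their 95% counting intervals (bars narrower than a point are hidden), and open triangles mark the level that 3 counts would give where 0 were counted. The acinar-like cluster 14 is at the top for Reg1, Reg2 and Reg3b, and Reg4 is high in the goblet-like cluster 11 alone (774 CPM).

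Reg1 was not the leading member everywhere. It exceeded Reg3b in both libraries in the acinar-like cells and in clusters 2, 3 and 5, and in clusters 1 and 7 in takinib. In the tuft-like cluster 13, led by Rgs13 and the tuft-cell kinase Dclk1, Reg3b was 1423 CPM against 1178 for Reg1 in 22 vehicle cells, and 1696 against 1102 in 13 takinib cells. In the endocrine-like cluster 15, led by the pancreatic polypeptide gene Ppy, 23 takinib cells held 1885 CPM of Reg3b and 1063 of Reg1. Reg3b was also the higher of the pair in the vehicle goblet-like cells and in the few takinib cells of clusters 6 and 9 (30 and 15 cells), though not in their vehicle cells. Gastric pit or neck-like cells (cluster 3, led by the gastrokines Gkn2 and Gkn1) leaned furthest to Reg1. They had 141 CPM against 16.7 of Reg3b in 31 vehicle cells and 1448 against 308 in 39 takinib cells. The vehicle values rest on 42 and 5 UMIs, and non-epithelial vehicle types held 60.3 to 136 CPM of Reg1 and 31.4 to 101 of Reg3b. The vehicle order in cluster 3 is therefore near background. Reg1 in vehicle goblet-like cells and both genes in takinib cluster 6 also lay within the levels of non-epithelial types. The tuft-like vehicle intervals overlap (969 to 1419 for Reg1 and 1192 to 1685 for Reg3b), so that order does not exceed counting error. Single cells weigh heavily in these sums, since 1 cell gave 64.2% of the takinib endocrine-like Reg3b UMIs and 1 cell gave 44.8% of the takinib Reg1 UMIs of cluster 3.

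Reg4 followed a different cell type from the other 6. In the vehicle library 520 of 597 kept Reg4 UMIs came from the 96 goblet-like cells of cluster 11, led by Mptx1, a mucosal pentraxin, and Spink4. Their Reg4 level was 774 CPM [708 to 843], and 42 of the 96 cells (43.8% [33.6 to 54.3]) had a Reg4 UMI, while the other epithelial-like vehicle cells held 11 UMIs in all. Goblet-like cells were low in the rest of the family, with 80.3 CPM of Reg1 and 150 CPM of Reg3b. With each cell thinned to 1000 UMIs, 0 of the 555 vehicle epithelial-like cells with Reg1 had a Reg4 UMI, and 33 cells had Reg4 without Reg1.

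The takinib library held 1 Reg4 UMI among 119726977, in a macrophage-like cell, and 0 in its epithelial-like cells. It also held 0 kept goblet-like cells, and the goblet mucin Muc2 stood at 362 CPM in vehicle and 0.267 CPM in takinib epithelial-like cells. With 3 counts in place of the 0, epithelial Reg4 was 307-fold lower in takinib, a log2 ratio of -8.26. Its counting interval reached up to -7.96. The value depends on the setting, at -7.23 with no doublets removed, -6.70 against vehicle cells with Xist only and -2.56 with 10 CPM added. Whether the takinib tumours lacked goblet-like cells, or whether none were sampled, cannot be told from 1 library.

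Reg RNA outside the epithelium was low, and the part of it that was Reg1 was close to that in the whole library. Over 8 other cell types with at least 50 vehicle cells, the summed family level ran from 106 CPM in fibroblast-like to 263 CPM in endothelial-like cells. Over 10 such takinib types it ran from 24.2 CPM in fibroblast-like to 138 CPM in plasma-like cells. Reg1 made up 47.9% to 58.3% of the family in the 7 vehicle types with at least 50 Reg UMIs, and 49.6% to 58.9% in 8 takinib types, beside 56.7% and 55.5% of all kept cells. In the vehicle library, barcodes of 1 to 100 UMIs, which hold free RNA rather than cells, had 863 CPM of Reg RNA with Reg1 at 54.4% of it. A share of cells with a UMI therefore needs this background beside it. Reg1 was detected in 49.6% [47.1 to 52.1] of vehicle epithelial-like cells at a median of 4984 UMIs and in 19.8% of vehicle macrophage-like cells at a median of 3900, or in 34.0% and 6.40% after thinning to 1000 UMIs. In takinib the shares were 52.7% at a median of 10100 UMIs and 12% at 6428, or 37.0% and 2.36% after thinning. Cluster 8, below the other types in vehicle, lay under the level of any background cell type, so its Reg signal cannot be told apart from free RNA.

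**Figure D3:**
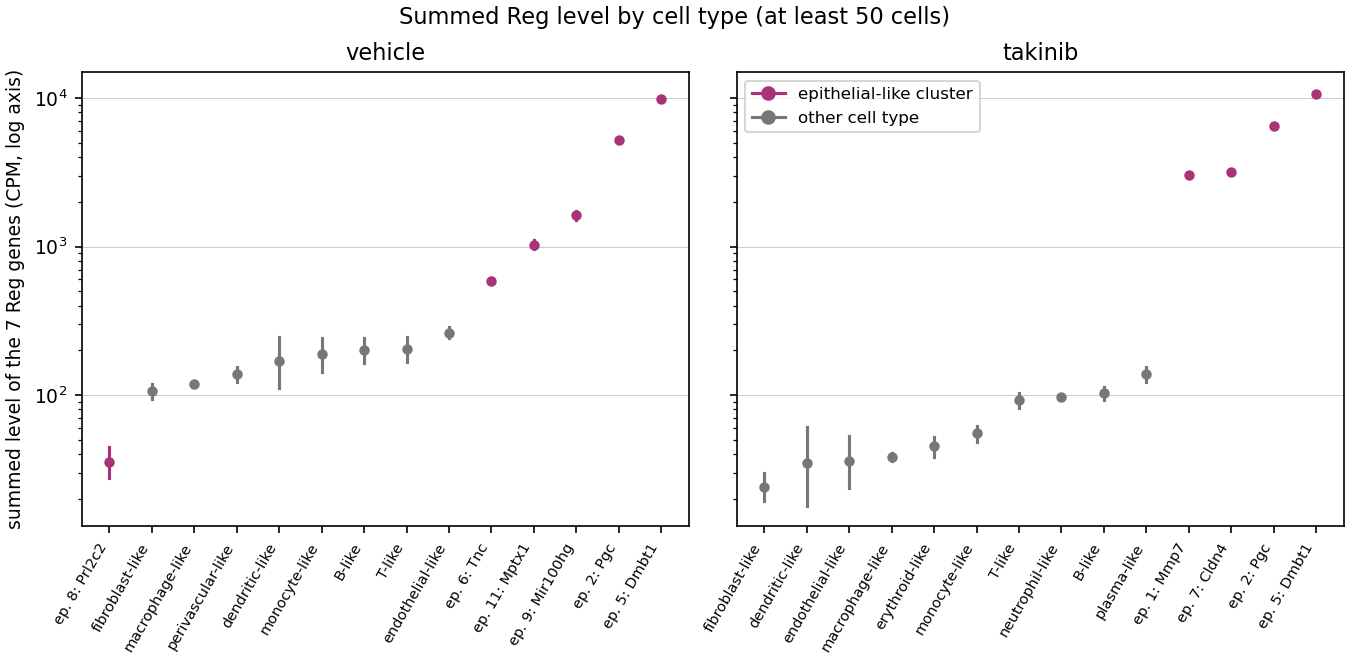
Summed level of the 7 Reg genes in CPM (log axis) in each cell type or epithelial-like cluster with at least 50 cells, in rising order, for vehicle (left) and takinib (right). Bars are 95% counting intervals, and mixed or unnamed clusters outside the epithelial-like set are not drawn. Each epithelial-like cluster shown except vehicle cluster 8 (35.5 CPM) lies above the other cell types, which reach 263 CPM in vehicle and 138 CPM in takinib.

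Within a cluster the members were uneven from cell to cell. In cluster 5, Reg1 ran from 0 to 41733 CPM in vehicle cells with a median of 2837, and from 0 to 47531 with a median of 1610 in takinib cells. The ranges overlap almost entirely. The top 10% of cells held 41.5% of the Reg1 UMIs of this cluster in vehicle and 54.6% in takinib. In cluster 7, 217 of the 387 takinib cells had 0 Reg1 UMIs while the top 10% held 79.5% of them. Mixed cluster 17, 210 takinib cells kept out of the epithelial-like set, was led by Gkn2 and Muc5ac and held 28072 CPM of neutrophil markers. Its top 10% of cells held 23.1% of its Reg1 UMIs.

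Over all epithelial-like cells of each library, Reg3b was detected more often in cells with Reg1 than in cells without it. After thinning, the share was 81.9% of the vehicle cluster 5 cells with Reg1 and 26.5% of those without, and 73.9% and 32.0% in takinib. In cluster 2 the shares were 69.8% and 11.5% in vehicle and 71.9% and 9.09% in takinib. Reg3g followed Reg3b, with 26.1% and 7.41% in vehicle cluster 5 and 43.3% and 14.2% in takinib cluster 5. In mixed cluster 17 the shares of Reg3b hardly differed, 42.8% of cells with Reg1 and 37.3% of those without. These shares were not tested, since cells are not replicates.

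**Figure D4:**
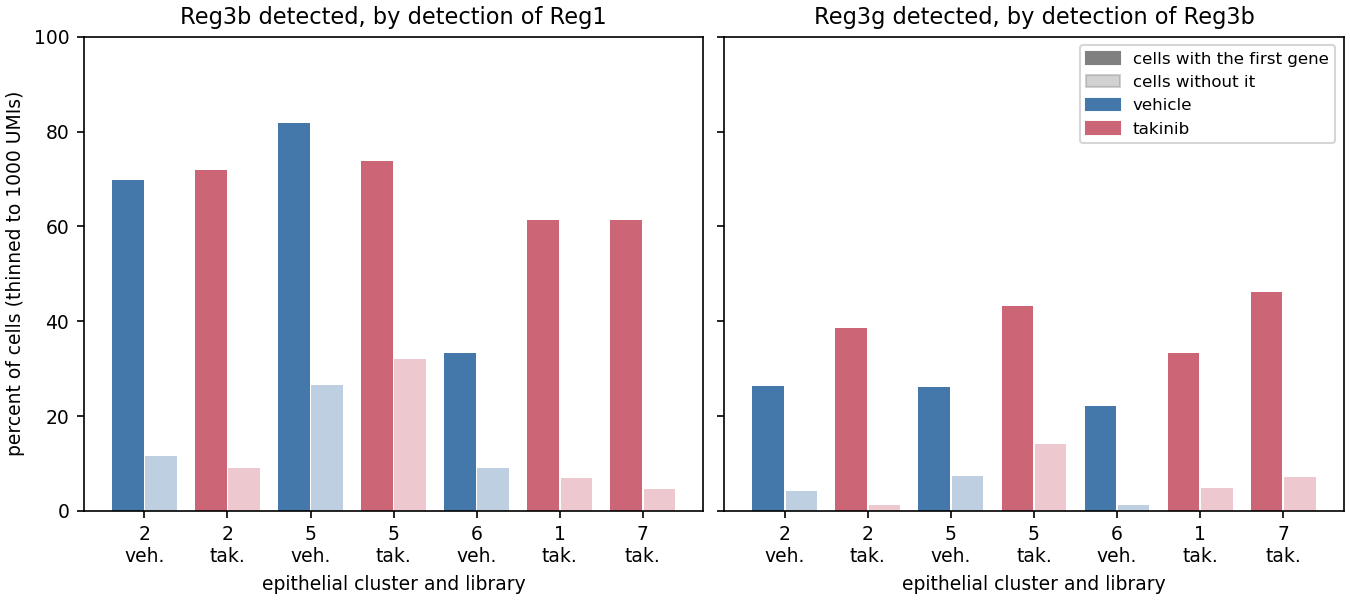
Percent of cells, each thinned to 1000 UMIs, in which Reg3b (left) or Reg3g (right) was detected (vertical axis), among cells with the first gene (full colour) and without it (pale), by epithelial cluster and library (vehicle blue, takinib red; at least 50 cells). Only clusters 1, 2, 5, 6 and 7 were chosen for drawing, and in these the full bar is the taller of each pair. Vehicle clusters 8, 9 and 11 also have at least 50 cells and are not drawn. In cluster 8 Reg3b was detected in 0% of the 3 cells with Reg1 and 0.68% of those without, while clusters 9 and 11 go with those drawn.

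Pearson correlations were taken over 36 sums of at least 50 cells each. These were each cell type and each epithelial, mixed or unnamed cluster, by library. The set leaves out the acinar-like cells and takes in cell types with Reg RNA near background. On the log2(CPM + 10) scale Reg1 and Reg3b had a correlation of 0.98, Reg1 and Reg3g 0.94, and Reg3b and Reg3g 0.95. Reg2 paired with Reg3a at 0.71 and with Reg1 at 0.27. Over 52 sums of at least 10 cells, which take in the acinar-like cells, these values were 0.96 and 0.51, against 0.96 for Reg1 and Reg3b. Over the 36 sums Reg4 lay between -0.06 and 0.06 with each other member. Outside the family the genes most like Reg1 were Dmbt1 (0.96), the mucin Muc1 and the stem-cell glycoprotein Prom1 (0.95 each), Cfi, a complement protease, and Anxa13, an annexin (0.93 each). Reg3b was most like Dmbt1 (0.98), and Reg3g most like AA986860 (0.96). Reg2 was most like the enzyme genes Ctrb1 (0.90) and Prss2 (0.89), and Reg3a like the elastase gene Cela3b (0.85). Reg4 was most like Guca2a (0.99), which encodes guanylin, Aqp4, Hao2, Atoh1, the secretory-lineage factor, and Sval1 (0.98 each). The sums share libraries and depth and the cells were clustered on many of these genes, so the values are descriptions.

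Over all epithelial-like cells, the log2 ratios of Reg1, Reg2, Reg3b, Reg3g and Reg4 had counting intervals that left out 0. How many of all genes did so was not counted, so this is no result about the family. Reg3g was 97.9 CPM [92.1 to 104] in vehicle and 276 [268 to 283] in takinib, a log2 ratio of takinib over vehicle of 1.49 [1.40 to 1.59]. Reg1 was 1787 CPM [1762 to 1812] in vehicle and 2686 [2662 to 2709] in takinib, a log2 ratio of 0.59. For Reg3b the levels were 1116 and 1763 CPM (0.66), and for Reg2 they were 83.6 and 136 CPM (0.71). The sum of the 7 was 3140 CPM in vehicle and 4865 in takinib, a log2 ratio of 0.63 [0.61 to 0.65]. The interval of Reg3a (5.37 and 3.90 CPM) spanned 0, from -0.98 to 0.06, as did that of Reg3d.

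Of the 6 members with at least 50 UMIs in a library, 1 (Reg3g) was above 2 times its vehicle level and 1 (Reg4) below 0.5 times, beside 7.11% and 8.5% of all 12189 genes with that many UMIs (15.6% in all). The count depends on the processing, and the shares of all genes were not recounted for the alternatives. With clusters weighted equally the log2 ratio of Reg3g was 0.94, under 2-fold, and that of Reg2 was 1.87. With no doublets removed Reg1 (1.24), Reg2 (1.81), Reg3b (1.36) and Reg3g (2.18) were above 2-fold. At a mitochondrial limit of 10% Reg1 (1.06), Reg3b (1.03) and Reg3g (1.81) were. In the main setting the median log2 ratio was 0.62 over the 6 members and -0.15 over all 12189 genes. Different clusters make up the 2 sides of this comparison. Clusters 6, 5 and 2 held most vehicle epithelial-like cells and clusters 1, 7 and 5 most takinib ones. Summed neutrophil markers stood at 134 CPM in vehicle and 11491 CPM in takinib epithelial-like cells, with 0 of the 9 at 0 in either library.

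Within the 2 epithelial-like clusters that had at least 50 cells in both libraries, the ratios were smaller than over all epithelial-like cells. In cluster 5 the log2 ratio was -0.02 [-0.06 to 0.02] for Reg1, 0.23 [0.18 to 0.28] for Reg3b and 0.72 [0.56 to 0.88] for Reg3g. In cluster 2 it was 0.23 [0.19 to 0.28] for Reg1, 0.49 [0.43 to 0.55] for Reg3b and 0.43 [0.23 to 0.63] for Reg3g. In mixed cluster 0 (69 and 79 cells, led by Muc6 and kept out of the epithelial-like set for its macrophage markers) they were larger, at 1.14 for Reg1, 1.71 for Reg3b and 2.26 for Reg3g. In clusters 2 and 5, 3 members each had at least 50 UMIs, and 0 were above 2 times and 0 below 0.5 times vehicle. Beside them, 5.11% of 6008 genes were above and 4.04% below in cluster 5 (9.15% in all), and 4.11% of 5857 genes above and 4.39% below in cluster 2 (8.5% in all). The cluster 2 ratios did not hold their sign: at a clustering resolution of 0.5 that of Reg1 was -0.70, that of Reg3b -1.32 and that of Reg3g -0.49, and against vehicle cells with Xist alone that of Reg1 was -0.0859. The cluster 5 ratio of Reg1 was above 0 under 5 of 12 alternatives and below under 7, from -0.19 to 0.84, with 0.84 when no doublets were removed and 0.57 at a resolution of 0.5. Those of cluster 5 for Reg3b and Reg3g stayed above 0 under all 12 alternatives run, from 0.13 to 0.93 and from 0.37 to 1.73.

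**Figure D5:**
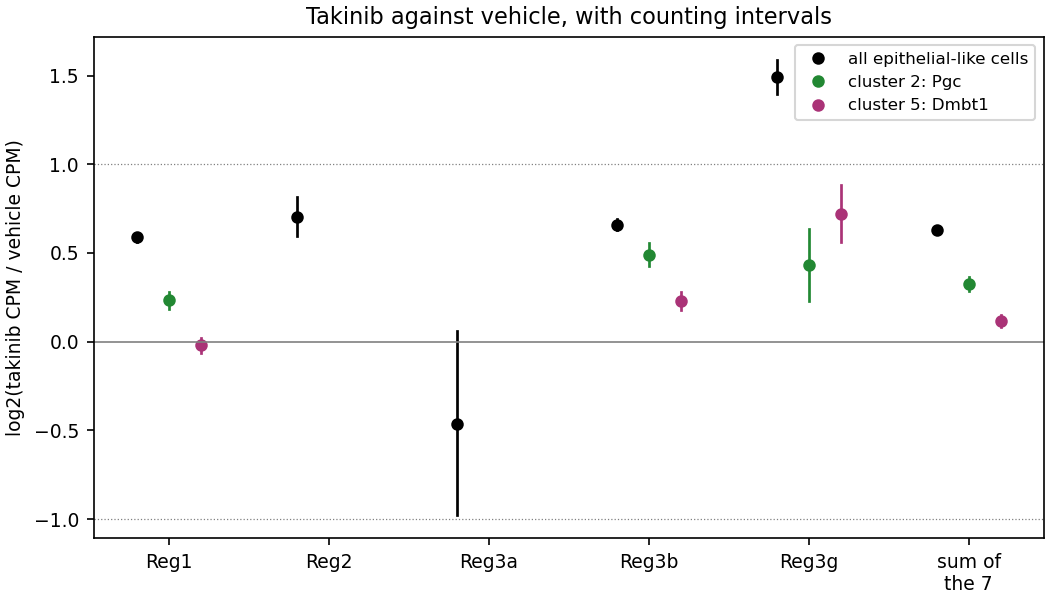
Log2 ratio of takinib CPM over vehicle CPM (vertical axis) for 5 Reg genes and the sum of the 7, over all epithelial-like cells (black), cluster 2 (green) and cluster 5 (purple), with 95% counting intervals; dotted lines mark 2-fold. Points are given where a library had at least 50 UMIs, and Reg4, with 0 takinib counts, is not drawn. Reg3g over all epithelial-like cells (1.49) is the one point above the upper dotted line.

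The positive epithelial ratio of Reg2 rested on the acinar-like cells. Without them its log2 ratio was -0.35 in place of 0.71, while that of the family sum was 0.73. The -0.35 comes from the few Reg2 UMIs left and has no counting interval, so it does not show lower Reg2 outside these cells. The Reg2 ratio was 3.18 against vehicle cells with Xist only, 0.35 against those with Y-linked UMIs and 1.87 with clusters weighted equally. Reg3g made up 3.12% of the epithelial family UMIs in vehicle and 5.66% in takinib, and 3.51% and 5.34% in cluster 5. In takinib cluster 7 Reg3g gave 348 of the 3157 CPM of the family.

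The other genes of the Reg pathway were read from lists chosen with earlier results of these data known. Among 12 ligands that feed STAT3 or act beside it, 6 had enough UMIs in epithelial-like cells. Of these, 3 were above 2 times and 2 below 0.5 times vehicle, beside 7.11% and 8.5% of all genes. Those above were Il1b (21.5 CPM in vehicle and 742 in takinib), Osm (3.52 and 39.1) and Tnf (6.85 and 43.8), cytokines that neutrophils and macrophages also make. Those below were Il11 (7.13 and 0.908) and Clcf1 (80.1 and 29.5). In cluster 5, where neutrophil markers summed to 139 and 654 CPM, Il1b stood at 18.2 and 40.1 CPM. In cluster 2 it stood at 15.3 and 156 CPM.

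Of 10 receptor genes with enough UMIs, 1 was above 2 times and 0 below 0.5 times, beside 7.11% and 8.5% of all genes. The gene above was Il6ra (6.30 and 15.8 CPM), and the shared receptor chain Il6st was lower, at 71.9 and 37.4 CPM. Il22ra1, the IL-22 receptor chain, was at most 3.32 CPM in clusters 2 and 5 in either library. Among 12 genes of STAT3 and its feedback or targets, 5 were above 2 times and 1 below 0.5 times. Socs3, a feedback inhibitor, was 33.4 and 106 CPM, Lrg1, a secreted glycoprotein, 44.0 and 173, and Stat3 itself 90.0 and 102. In cluster 5, 1 of 9 was above, Lrg1 (109 and 225 CPM), and 1 below, Bcl3 (63.8 and 26.5), with Socs3 at 37.3 and 58.7. Of all genes in cluster 5, 5.11% were above and 4.04% below. The proposed receptor Extl3 was 24.5 CPM in vehicle and 12.1 in takinib epithelial-like cells, a log2 ratio of -1.02. The partners Sdc1 (-0.81), Egfr (-0.89) and Cd44 (-1.03) were lower too. Of the 4, 2 (Extl3 and Cd44) were below 0.5 times vehicle, beside 8.5% of all genes. Cd44 was not lower in cluster 2 (0.13 [-0.04 to 0.30]), where Sdc1 was -0.52 and Egfr -1.24. In cluster 5 Cd44 was -0.93, Sdc1 -0.33 and Egfr -1.15.

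Other antimicrobial and acute-phase genes of epithelium had a higher median log2 ratio than the Reg genes, which was not tested. Of 14 with enough UMIs over all epithelial-like cells, 8 were above 2 times and 2 below 0.5 times, beside 7.11% and 8.5% of all genes. Their median was 1.75, beside 0.62 for the Reg genes. In cluster 5, 4 of 9 were above and 0 below, beside 5.11% and 4.04% of all genes. The median there was 0.71, beside 0.23 for the Reg genes and 0.01 over all genes. There Lcn2, a siderophore-binding protein, was 1287 CPM in vehicle and 4279 in takinib, Saa3, an acute-phase protein, 14.9 and 227, and Ltf, lactoferrin, 62.2 and 260. The lowest log2 ratios there were those of Nupr1 (-0.01), Pigr (-0.42) and Duox2 (-0.50). Lcn2 and Saa3 are also high in neutrophil-like cells, at 12650 and 15720 CPM in takinib, and the part of that RNA in cluster 5 was not tested. Of the 9 goblet genes 7 were below 0.5 times and 0 above over all epithelial-like cells, beside 96 goblet-like cells in vehicle and 0 in takinib. Of 14 acinar genes 8 were above and 1 below, beside 38 and 16 acinar-like cells.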

How the data were processed

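The members, gene lists and cell type markers were chosen with earlier results of these data known, and the rule that named clusters was set after seeing them. Inputs were the authors' deposited raw UMI counts per gene and barcode for 2 libraries. Per the file headers they come from Cell Ranger 4 (vehicle) and 6.1.1 (takinib); the submitters' processing notes name Cell Ranger 2.1.1, STAR 2.0.4b, featureCounts 1.45, Subread, bcl2fastq and mm10, with no role given, and differ from the headers. The vehicle table lists 470280 barcodes with a UMI (80850334 UMIs) and the takinib one lists 34158 barcodes (139292875 UMIs), each with at least 500 UMIs.

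Cells were filtered as stated in the report. Scrublet (scanpy 1.11.5) removed 314 vehicle doublets at its automatic threshold. Its takinib threshold marked 0.00373%, so the 6% highest scores (1607 cells) were removed. Both libraries were clustered together on 2000 variable genes without Reg genes (30 components, 15 neighbours, Leiden resolution 1), and epithelial clusters again at 0.5. A cluster was named where at least 3 markers stood out and no second class reached 0.75 of the best score. 6 mixed clusters (345 vehicle and 505 takinib cells) were kept out. Counts were summed per cluster and library, with no test, since each group has 1 library. The ratio, its interval and the 2-fold count were tested on simulated data. All 7 members are named; list genes are the 3 highest and 3 lowest ratios of each list or genes whose count the text explains, and further context genes were chosen after their values were seen. Alternatives changed filters, doublets, depth, scaling, clustering and sex of origin; 4 were chosen after seeing the data (mixed clusters counted in, cluster 1 or the acinar-like cells left out, clusters weighted equally).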

Additional observations from a re-analysis of the deposited data

Results flagged for a closer look

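Reg RNA also appeared in barcodes that entered no comparison. Barcodes with at least 1000 UMIs that failed the gene or mitochondrial filter held 1646 CPM of the 7 Reg genes in the vehicle library (3173 barcodes) and 275 CPM in the takinib library (2326 barcodes), beside 929 and 874 CPM in kept cells. In the vehicle library these barcodes stood above kept cells, and in the takinib library below them.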

How the results depend on the processing

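None of the 17 alternatives run for the Reg family sum loosened the UMI, gene or mitochondrial limit. Its log2 ratio over all epithelial-like cells (0.63) stayed above 0 under all 17, from 0.45 to 1.32. It was 0.45 with cells thinned to 1000 UMIs, 0.57 at resolution 0.5, 0.60 with the mixed clusters, 0.61 with at least 2000 UMIs and 1000 genes, 0.66 without the 1% of cells with most Reg UMIs, 0.73 without acinar-like cells, 0.79 with the median gene ratio set to 0, 0.80 against vehicle cells with Y-linked UMIs and also for cells called by 7 genes without clustering, 0.87 with clusters weighted equally, 0.88 at resolution 2, 0.98 without cluster 1, 1.04 at a mitochondrial limit of 10% and 1.32 with no doublets removed. Among ratios whose main interval excluded 0, these changed sign: Reg2 over all epithelial-like cells was -0.35 without acinar-like cells; in cluster 2, Reg1 was -0.0859 against vehicle cells with Xist only, -0.00692 with no doublets removed and -0.70 at resolution 0.5, where Reg3b was -1.32, Reg3g -0.49 and the family sum -0.88. Of ratios whose main interval spanned 0, Reg3a over all epithelial-like cells was above 0 under 5 of 17 alternatives, Reg3d under 5 of 14, Reg1 in cluster 5 under 5 of 12 and Reg2 in cluster 2 under 1 of 9. Re-made clusters shared between 31.7% and 57.3% of cells with clusters 2 and 5, so those values describe partly other cells, and at resolution 2 both were matched to 1 cluster; the cause was not tested. Reg4 was lower under all 16 alternatives that gave a value. No paired analysis was possible because each group holds 1 library with the same number. Depth limits Reg3a, Reg3d and Reg4 outside their own clusters, and no alternative replaces a second mouse.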
